A study of Mus musculus with 6 samples.

Results

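The miR-26 family was measured in the small RNA of neural stem cells of the hippocampus, which divide and give rise to neurons and glia. Members were chosen by name, as every entry of the deposited table that starts with miR-26a- or miR-26b-, which gave 5 of 1522 entries. They were mmu-miR-26a-5p, mmu-miR-26b-5p, mmu-miR-26a-1-3p, mmu-miR-26a-2-3p and mmu-miR-26b-3p, written below without the species prefix, and all 5 passed the filter on low values (at least 1 RPM in 3 or more libraries), as did 649 entries in all. RPM is the read (tag) count scaled to the depth of the library, here to a total larger than that of the table. In the GDE group (gestational dexamethasone exposure, titled IUGR in the labels) the pregnant mice had received the synthetic glucocorticoid dexamethasone (DEX) intraperitoneally once a day at 1 mg/kg, with the first dose on E14.5 and the last on E18.5 (E, embryonic day). In the Ctrl group (titled Normal) the dams had been given the same volume of normal saline on those days. The 3 GDE and 3 Ctrl libraries came from male C57BL/6J mice at postnatal day 3, per the design text from independent litters. No source used here gives the number of animals behind a library.

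A microRNA precursor is a hairpin whose arms are cut out as a duplex. One arm, the guide, is usually kept by Argonaute and pairs with messages through its seed, bases 2 to 8, while the other arm, the passenger, is mostly degraded. The miR-26 precursors lie in introns of the Ctdsp genes, which encode small C-terminal domain phosphatases that act with REST, a repressor of neuronal genes in non-neuronal cells and progenitors. In zebrafish, miR-26b has been described to repress its own host gene, ctdsp2, during neurogenesis, and Ezh2 is a known target of miR-26a in mammals. None of the host or target messages was measured here.

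The 3 precursors carried the same 5p seed and are shown because their arms decide which of them can be told apart. In the RefSeq sequences (GRCm38.p6) the hairpins read as follows, 5′ to 3′, with the 5p and 3p arms in capitals.
Mir26a-1: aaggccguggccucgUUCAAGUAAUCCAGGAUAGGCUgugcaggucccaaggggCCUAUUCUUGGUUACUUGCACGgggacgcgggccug
Mir26a-2: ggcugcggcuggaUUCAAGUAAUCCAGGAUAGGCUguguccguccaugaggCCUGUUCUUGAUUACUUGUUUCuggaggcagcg
Mir26b: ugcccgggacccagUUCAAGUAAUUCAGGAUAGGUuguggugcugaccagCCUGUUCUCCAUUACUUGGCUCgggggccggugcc

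Mir26a-1 lies on chromosome 9, 119031796 to 119031885, in intron 5 of 7 of a transcript of Ctdspl. Mir26a-2 lies on chromosome 10, 126995530 to 126995613, in intron 5 of 7 of a transcript of Ctdsp2. Mir26b lies on chromosome 1, 74394310 to 74394394, in intron 4 of 6 of a transcript of Ctdsp1. All 3 are on the plus strand, as are their hosts, and none overlaps an exon (GENCODE M21, GRCm38, the assembly also called mm10).

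The mature sequences, with the seed in capitals, show which arms share a seed.
miR-26a-5p: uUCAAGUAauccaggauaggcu
miR-26b-5p: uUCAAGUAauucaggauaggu
miR-26a-1-3p: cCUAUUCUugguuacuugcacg
miR-26a-2-3p: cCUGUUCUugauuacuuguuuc
miR-26b-3p: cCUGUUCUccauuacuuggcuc

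The 5p arm of Mir26a-1 and Mir26a-2 is 1 sequence, so miR-26a-5p counts both precursors and only the 3p arms separate them. miR-26b-5p differs from miR-26a-5p at 2 of the 21 positions compared, as C11U and C21U (position 1 is the 5′ end, and miR-26a-5p has the first base). Both lie outside the seed, and among the 1679 mature mouse miRNAs of the RefSeq table UCAAGUA was the seed of these 2 alone. Of the 3p arms, miR-26a-2-3p and miR-26b-3p share the seed CUGUUCU, while miR-26a-1-3p differs from miR-26a-2-3p within it, as A4G. How reads that fit more than 1 of these sequences were assigned by the authors' counting is not stated in any source used here.

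With the unit read as RPM, the libraries held 11751322 to 12384958 tags, of which 24.1% to 27.8% were in the table. The progenitor markers miR-9-5p and miR-9-3p summed to 15328 to 17058 RPM in GDE and to 15719 to 16712 RPM in Ctrl, and the neuron marker miR-124-3p was at 210.4 to 267.2 RPM in GDE and at 182.4 to 283.2 RPM in Ctrl. Markers of other cells were present too. The 3 leukocyte markers (miR-142a-3p, miR-223-3p and miR-150-5p) summed to 310.4 to 471.3 RPM in GDE and to 106.7 to 251.2 RPM in Ctrl. The red cell marker miR-451a lay at 58.4 to 74.1 RPM in GDE and at 20.8 to 52.8 RPM in Ctrl, and the choroid plexus marker miR-204-5p at 384.5 to 973.5 RPM in GDE and at 154.7 to 519.1 RPM in Ctrl. The endothelial marker miR-126a-3p (247.4 to 447.8 RPM in GDE, 220.6 to 329.8 RPM in Ctrl), the 2 mural markers (66.6 to 94.2 RPM in GDE, 63.8 to 84.2 RPM in Ctrl), the 2 oligodendrocyte markers (8.01 to 11.3 RPM in GDE, 3.80 to 13.3 RPM in Ctrl) and the liver marker miR-122-5p (9.07 to 17.9 RPM in GDE, 8.17 to 11.0 RPM in Ctrl) had overlapping groups in these levels or sums. Within the mural pair, miR-145a-5p alone did not overlap, with 5.09, 4.15 and 5.28 RPM in GDE and 2.66, 2.42 and 3.23 RPM in Ctrl. The 2 muscle markers summed to no more than 1.09 RPM. Of this pair, miR-133a-3p was also higher in every GDE than in every Ctrl library, but on only 1 to 6 tags per library.

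The guide arms made up nearly all of the family. miR-26a-5p was at 8055, 7716 and 7509.7 RPM in the 3 GDE libraries and at 7705, 7493 and 7867 RPM in the 3 Ctrl libraries. The groups overlapped, the highest and the lowest library differed 1.08-fold, and over all libraries it ranked 9 of 1522 entries. miR-26b-5p was at 927.0, 950.4 and 783.2 RPM in GDE and at 938.8, 792.1 and 882.4 RPM in Ctrl, again with overlapping groups, and ranked 54. Together the 5p arms held 3.48%, 3.33% and 3.44% of the RPM of the table in GDE and 3.11%, 3.27% and 3.36% in Ctrl. The difference was 0.17 percentage points with overlapping groups (exact two-sided permutation p = 0.2, where 3 against 3 libraries allow no p below 0.1), and 0.101 without Ctrl replicate 1. As RPM per all tags of the library, their sum was 8647 ± 345 RPM in GDE and 8559.6 ± 243.8 RPM in Ctrl (SD, n = 3 each; exact permutation p = 0.7).

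The passenger arms were far lower. miR-26a-2-3p was at 73.6, 60.3 and 68.7 RPM in GDE and at 95.8, 65.7 and 59.8 RPM in Ctrl. miR-26b-3p was at 14.9, 15.8 and 18.2 RPM in GDE and at 20.0, 29.0 and 23.7 RPM in Ctrl. miR-26a-1-3p was at 6.60, 4.40 and 6.10 RPM in GDE and at 9.31, 6.30 and 5.79 RPM in Ctrl, which rested on 79, 52 and 74 tags in GDE and on 112, 78 and 68 tags in Ctrl. The order miR-26a-5p, miR-26b-5p, miR-26a-2-3p, miR-26b-3p and miR-26a-1-3p was the same in all 6 libraries, and no neighbouring pair in it overlapped over the 6. These sequences are 21 or 22 bases long, so no correction for length was made, and differences between sequences in how well they ligate and amplify were not measured.

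**Figure D1:**
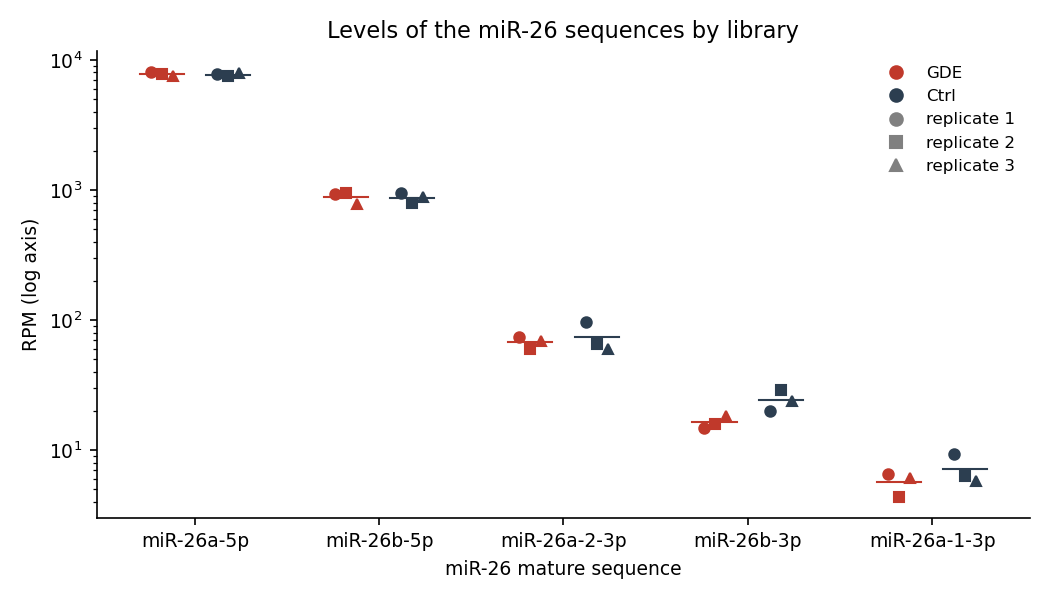
Level of each miR-26 mature sequence in RPM (log axis) by library, with GDE left of Ctrl; points are libraries with a shape per replicate number and lines are group means. The sequences form 5 separate tiers, from 7493 to 8055 RPM for miR-26a-5p down to 4.40 to 9.31 RPM for miR-26a-1-3p, and the groups overlap in all tiers but that of miR-26b-3p.

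Between GDE and Ctrl, 0 of the 5 miR-26 sequences passed an adjusted p under 0.05 in limma, fitted over all 649 tested miRNAs, where 0.308% did. At an unadjusted p under 0.05 there was 1, miR-26b-3p, against 8.63% of all tested. edgeR, limma-voom and DESeq2 on the recovered tags also called 0 of the 5 at an adjusted p under 0.05, where they called 0.308%, 0.154% and 0.772% of all tested, in this order. At an unadjusted p under 0.05 they gave 0 of the 5, against 8.01%, 7.86% and 8.80% of all tested. The labels do not say whether a library is 1 animal, so p-values measure the spread between these libraries. In bulk RNA, fewer cells of a type and less RNA per cell cannot be told apart.

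On the deposited RPM the log2 folds of the guide arms were the nearest to 0 of the 5, which did not hold on the recovered tags or with RPM rescaled to the sum of the table. For miR-26a-5p the mean was 7760 ± 275 RPM in GDE and 7688 ± 188 RPM in Ctrl (SD, n = 3 each), with a log2 fold of 0.01 on the log2(RPM + 1) scale (SE 0.05; limma, adjusted p = 0.984). Its 95% interval, from -0.11 to 0.14, corresponds to 0.925-fold to 1.10-fold. For miR-26b-5p the mean was 887 ± 90.5 RPM in GDE and 871 ± 74.0 RPM in Ctrl, with a log2 fold of 0.02 (SE 0.13, 95% interval -0.29 to 0.33; limma, adjusted p = 0.989). Leaving out single libraries changed the sign of both. For miR-26a-5p the fold was negative without GDE replicate 1 or Ctrl replicate 2, over a range of -0.014 to 0.036. For miR-26b-5p it was negative without GDE replicate 1, GDE replicate 2 or Ctrl replicate 2, over a range of -0.043 to 0.11. The intervals bound the size of a difference in the deposited values and are no evidence of equality. For miR-26a-5p the bound takes the counting of the most abundant miRNAs as undistorted, which was not tested (see the spread below). On the recovered tags the log2 folds in edgeR, limma-voom and DESeq2 were 0.11 to 0.12 for miR-26a-5p and 0.12 to 0.13 for miR-26b-5p. Here edgeR and limma-voom scaled the libraries in the same way, and DESeq2 in its own.

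Among the 5 sequences, miR-26b-3p was the 1 whose groups did not overlap. All 3 GDE libraries had less miR-26b-3p than all 3 Ctrl libraries, with 16.3 ± 1.70 RPM in GDE and 24.3 ± 4.50 RPM in Ctrl (SD, n = 3 each). The tags behind these values were 179, 187 and 221 in GDE and 241, 359 and 279 in Ctrl. Exact 95% counting intervals, which cover counting error only, ran from 15.9 to 20.8 RPM in the highest GDE library and from 17.6 to 22.7 RPM in the lowest Ctrl library, so these libraries overlap within counting error. The log2 fold was -0.53 (SE 0.22, 95% interval -1.04 to -0.02; limma, unadjusted p = 0.0424, adjusted p = 0.561, and 0.479 to 0.822 over the alternatives), so it did not pass the threshold. The exact permutation p was 0.1, the smallest these libraries allow. Of all tested miRNAs, 14.6% had groups that did not overlap, 10.0% lower and 4.62% higher in GDE, so 1 of 5 is near the share over all. The 3 leukocyte markers, miR-451a and miR-145a-5p also separated the groups, in the other direction (values above, for the leukocyte markers as a sum). So did miR-133a-3p, which was below the filter, on 4, 4 and 6 tags in GDE and 3, 1 and 2 tags in Ctrl. The part of these markers in the miR-26b-3p values was not tested.

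The arms were then compared within a library as ratios, which do not depend on the scaling of the library as long as no pseudocount is added. In all 6 libraries the 5p arm was the abundant one. For miR-26b the ratio of 5p over 3p was 62.0, 60.0 and 43.0 in GDE and 46.9, 27.3 and 37.2 in Ctrl. GDE replicate 3 lay below Ctrl replicate 1, so the groups overlapped. The log2 ratio, of values with 1 RPM added, was higher in GDE by 0.56 (SE 0.26, 95% interval -0.06 to 1.18; limma over 178 arm pairs, unadjusted p = 0.0716, adjusted p = 0.638; exact permutation p = 0.2). Without Ctrl replicate 2 this difference was 0.36, and with a pseudocount of 10 RPM it was 0.40. As a share of the tags of both arms, miR-26b-3p made up 1.59%, 1.64% and 2.27% in GDE and 2.09%, 3.53% and 2.62% in Ctrl.

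For miR-26a the 3p level was taken as the sum of miR-26a-1-3p and miR-26a-2-3p, since the 5p arm is shared. The ratio of 5p over summed 3p was 100.4, 119.3 and 100.4 in GDE and 73.3, 104.0 and 119.9 in Ctrl. Ctrl replicate 1 was the lowest and Ctrl replicate 3 the highest of all. The log2 ratio differed by 0.13 between GDE and Ctrl (SE 0.23, 95% interval -0.41 to 0.68; limma, adjusted p = 0.967; exact permutation p = 0.9), and by -0.069 without Ctrl replicate 1. Of the 178 arm pairs, 0 had a changed ratio at an adjusted p under 0.05 in limma (0% of pairs), and 12 (6.74%) had an unadjusted p under 0.05. No other tool was run on these ratios.

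**Figure D2:**
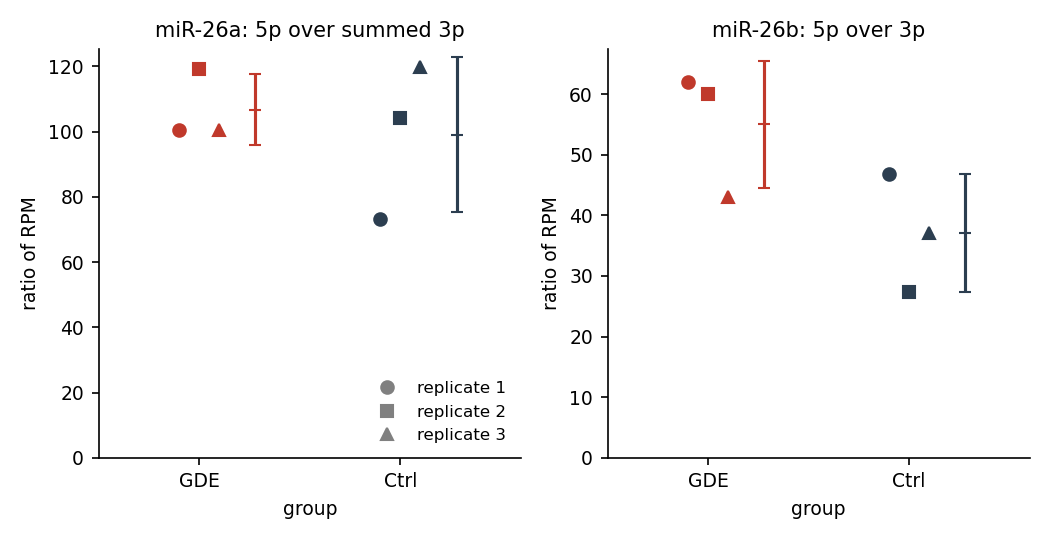
Ratio of the 5p over the 3p level in each library for miR-26a (left panel, 3p arms summed) and miR-26b (right panel), with GDE left of Ctrl; points are libraries, and bars beside them are the mean ± SD of 3. For miR-26b the GDE values run from 43.0 to 62.0 and the Ctrl values from 27.3 to 46.9, and for miR-26a the groups overlap widely.

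The preference for the 5p arm was strong among the pairs of the table. Over the 6 libraries the mean log2 ratio of 5p over 3p was 6.65 for miR-26a and 5.40 for miR-26b, against a median of 1.24 over the 178 pairs. Of these pairs, 112 had more of the 5p arm, 16 had a higher ratio than miR-26a and 28 a higher one than miR-26b. This place in the order is a description of the levels, without a test.

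The 3p arms also give the only view of Mir26a-1 against Mir26a-2. How much of each 3p arm is kept was not measured, so their ratio need not be that of the precursors. miR-26a-2-3p exceeded miR-26a-1-3p 11.2-fold, 13.7-fold and 11.3-fold in GDE and 10.3-fold, 10.4-fold and 10.3-fold in Ctrl. miR-26a-1-3p therefore made up 8.22%, 6.81% and 8.16% of the miR-26a 3p tags in GDE and 8.85%, 8.74% and 8.82% in Ctrl. The 3 Ctrl libraries lay above all GDE libraries. The exact (Clopper-Pearson) 95% intervals, however, were wide, from 5.12% to 8.83% in GDE replicate 2 and from 6.97% to 10.8% in Ctrl replicate 2, and the intervals of all 6 libraries overlapped. The log2 ratio of miR-26a-1-3p over miR-26a-2-3p was lower in GDE by 0.17 (exact permutation p = 0.1, the smallest possible), and with a pseudocount of 10 RPM the difference was -0.031. Without GDE replicate 2 it was -0.0997.

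Neither 3p arm of miR-26a passed the test between the groups. miR-26a-2-3p averaged 67.5 ± 6.76 RPM in GDE and 73.8 ± 19.3 RPM in Ctrl (SD, n = 3 each), with a log2 fold of -0.10 (SE 0.24, 95% interval -0.66 to 0.46; limma, adjusted p = 0.948). Ctrl replicate 1 set this sign, as the fold was 0.10 without it, and in edgeR, limma-voom and DESeq2 the fold lay between -0.012 and -0.0030. miR-26a-1-3p averaged 5.70 ± 1.15 RPM in GDE and 7.13 ± 1.90 RPM in Ctrl, with a log2 fold of -0.27 (SE 0.24, 95% interval -0.83 to 0.29; limma, adjusted p = 0.749), and of -0.09 without Ctrl replicate 1.

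The ratio between the guide arms was compared because miR-26a-5p and miR-26b-5p carry 1 seed. miR-26a-5p exceeded miR-26b-5p 8.69-fold, 8.12-fold and 9.59-fold in GDE and 8.21-fold, 9.46-fold and 8.92-fold in Ctrl. The difference in log2 ratio between GDE and Ctrl was -0.01 (exact permutation p = 0.9), and it was positive without GDE replicate 2, at 0.045, or without Ctrl replicate 2, at 0.037.

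The members also differed in how they varied between libraries. On the log2(RPM + 1) scale, relative to its own mean, miR-26a-1-3p lay at 0.50 and miR-26a-2-3p at 0.45 in Ctrl replicate 1, where miR-26b-3p lay at 0.02. In GDE replicate 2 they lay at -0.43 and -0.21, and miR-26b-3p at -0.30. miR-26b-3p was farthest above its mean in Ctrl replicate 2, at 0.53. As a measure of likeness, the root mean square difference of these centred values over the 6 libraries was taken. It was 0.11 between the 3p arms of miR-26a and 0.09 between miR-26a-5p and miR-26b-5p, and for the other 8 pairs of members it lay between 0.23 and 0.41. Some miRNAs outside the family lay nearer to each 3p arm of miR-26a than the other 3p arm did. Among them, miR-130a-5p lay at 0.07 from miR-26a-1-3p and miR-378a-5p at 0.07 from miR-26a-2-3p, so this likeness was not particular to the pair. This measure is not scaled to the spread of a sequence. It is small between sequences that vary little, as the guide arms do, whatever their pattern.

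**Figure D3:**
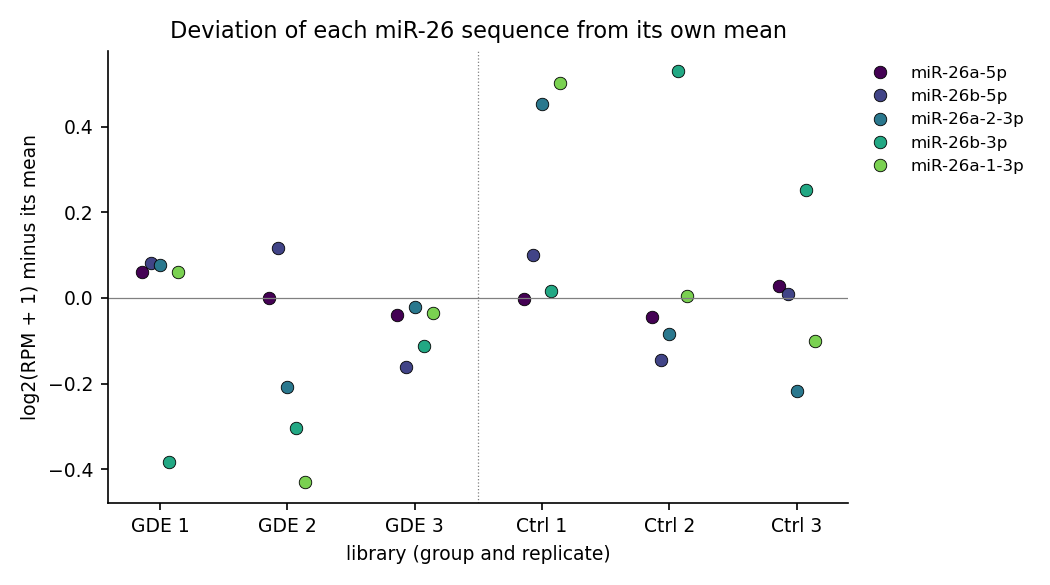
Log2(RPM + 1) of each miR-26 mature sequence minus its mean over the 6 libraries, with the GDE libraries left of the dotted line and the Ctrl libraries right of it. The 3p arms of miR-26a stand at 0.50 and 0.45 in Ctrl replicate 1, miR-26b-3p is below 0 in the 3 GDE libraries and above 0 in the 3 Ctrl libraries, and the farthest value of miR-26a-5p is 0.06.

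By the same measure, among 320 named miRNAs of at least 10 RPM, the patterns nearest to miR-26a-5p were those of let-7c-5p (0.02), miR-99a-5p (0.03) and let-7b-5p (0.03). Nearest to miR-26b-5p were miR-191-5p (0.05), miR-181c-5p (0.07) and miR-30b-5p (0.07). As the measure is not scaled to the spread, low spread alone can place a miRNA on these lists, without a shared pattern. In level, miR-26a-5p stood between miR-34a-5p, at 7801 ± 383 RPM in GDE and 7814 ± 152 RPM in Ctrl, and let-7f-5p, at 7524 ± 110 RPM in GDE and 7732 ± 238 RPM in Ctrl. miR-26b-5p stood between miR-129-5p, at 896.8 ± 182.9 RPM in GDE and 877.4 ± 168.3 RPM in Ctrl, and miR-125a-5p, at 863.1 ± 109.7 RPM in GDE and 879.1 ± 112.2 RPM in Ctrl (SD, n = 3 each). The range of each neighbour overlapped that of its miR-26 sequence.

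The narrow spread of miR-26a-5p was shared with the other most abundant miRNAs. Its within-group SD was 0.04 on the log2 scale, and the median was 0.05 over the 18 miRNAs of at least 5000 RPM, 6 of which varied less. The median was 0.19 between 1000 and 5000 RPM and 0.27 between 500 and 1000 RPM, the class of miR-26b-5p, whose own SD was 0.14. For the 3p arms the SD was 0.27 for miR-26a-2-3p, 0.21 for miR-26b-3p and 0.29 for miR-26a-1-3p. In tags, miR-26a-5p, which counts Mir26a-1 and Mir26a-2 together, ran from 91071 to 96489, a 1.06-fold range. By contrast, miR-26a-2-3p, cut from Mir26a-2 alone, ran from 703 to 1153, a 1.64-fold range. The variance of the miR-26a-5p tags over the unscaled libraries was 41.8 times their mean. For the most abundant entry, miR-9b-3p, it was 0.319 times the mean, below counting error, with a 1.004-fold range of tags. Whether the counting compressed the levels of the most abundant miRNAs was not tested. The fold, interval, rank, share and ratios of miR-26a-5p given above rest on the same tags.

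**Figure D4:**
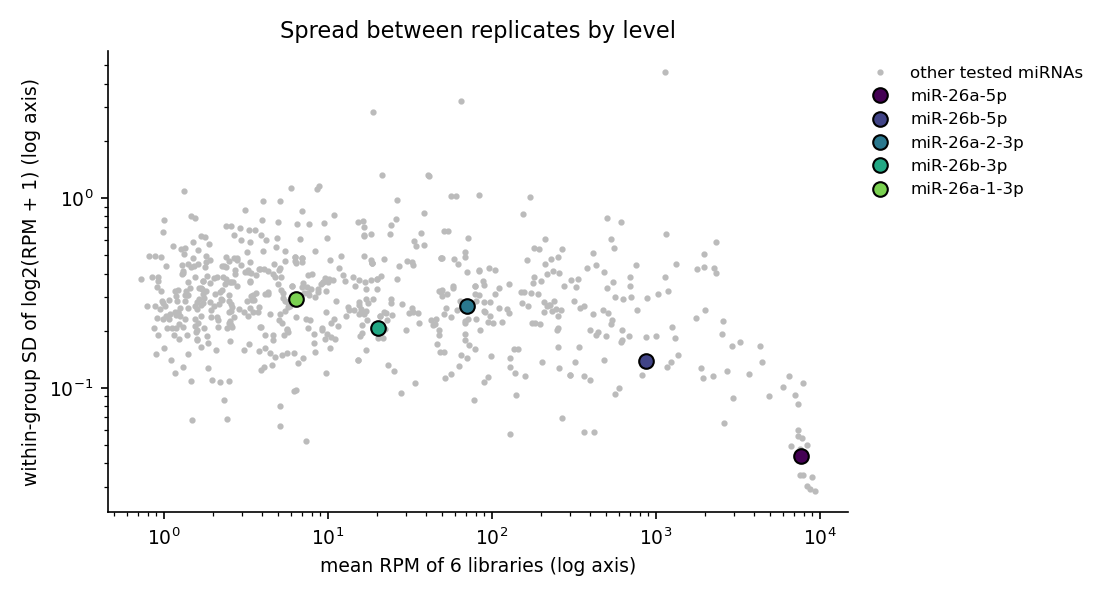
Within-group SD of log2(RPM + 1) against mean RPM (both log axes) for the tested miRNAs; each point is 1 miRNA, and the miR-26 sequences are coloured. miR-26a-5p, with an SD of 0.04, lies in the group above 5000 RPM, where the SDs run from 0.03 to 0.12, and the other members lie at 0.14 to 0.29.

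The miRNAs that REST is known to repress were set beside the family, as the other side of the circuit the Ctdsp phosphatases belong to. The list held both arms of miR-9, of progenitors, of miR-124, of neurons, and of miR-132 and miR-212, which are induced by CREB. All 8 were tested, 0 passed an adjusted p under 0.05 in limma, edgeR, limma-voom or DESeq2, and 0 had an unadjusted p under 0.05 in any of these. Of all tested miRNAs, 0.308% passed the adjusted and 8.63% the unadjusted threshold in limma, so at 8 members a count of 0 is near that share. In limma, 3 log2 folds were positive and 5 negative, with a median of -0.01, against 252 positive and 397 negative and a median of -0.07 over all tested. The median of the list was 0.09 to 0.10 in edgeR, limma-voom and DESeq2, so its sign depended on the scaling. miR-9-5p averaged 8389 ± 209 RPM in GDE and 8427 ± 357 RPM in Ctrl, and miR-9-3p at 7882 ± 718 RPM in GDE and 7915 ± 369 RPM in Ctrl. miR-124-3p had 238.6 ± 28.4 RPM in GDE and 229.0 ± 50.8 RPM in Ctrl, and miR-212-3p at 79.9 ± 9.44 RPM in GDE and 79.3 ± 22.5 RPM in Ctrl (SD, n = 3 each). The largest folds of the list, named after their values were seen, were those of miR-212-5p, at 56.3 ± 24.2 RPM in GDE and 81.9 ± 26.4 RPM in Ctrl (log2 fold -0.57, limma adjusted p = 0.626), and of miR-132-5p, at 15.4 ± 3.43 RPM in GDE and 19.1 ± 3.77 RPM in Ctrl (log2 fold -0.29, limma adjusted p = 0.723). The groups overlapped for each of the 8. Of all tested miRNAs, 14.6% had groups that did not overlap, so at 8 members a count of 0 is not far from that share.

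**Figure D5:**
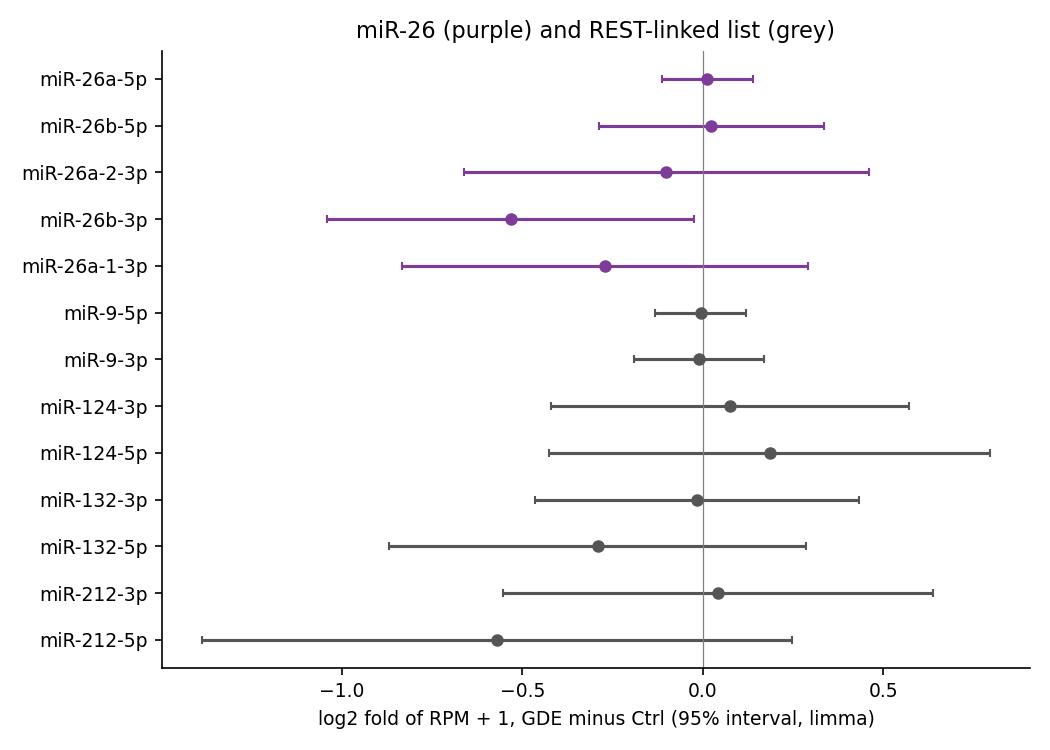
Log2 fold of RPM + 1, GDE minus Ctrl, with its 95% interval from limma, for the 5 miR-26 sequences (purple) and the 8 miRNAs of the REST-linked list (grey). The interval of miR-26b-3p, from -1.04 to -0.02, lies below 0 without adjustment for the 649 tests, and that of miR-26a-5p is narrow, from -0.11 to 0.14.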

How the data were processed

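Small RNA was extracted with TRIzol and made into libraries with the MGIEasy Small RNA kit, per the labels' protocols. The submitters' processing notes name Bowtie2 and mm10, with no version or role. The authors deposited 1 table of expression values in 6 columns, per the file headers, in RPM scaled to a library total by the authors. The unit was inferred, because each column's values are whole multiples of 1 step (0.0807 to 0.0851 RPM), and 100% of the nonzero values gave whole tags within 0.1 tags. Tags recovered this way numbered 2927136 to 3343808 per library. Molecular identifiers are not mentioned in the sources used here, and intervals cover counting error only.

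Columns were matched to libraries by the library names in the labels. limma 3.58.1 in R 4.3.3, with a trend, was run on log2(RPM + 1), which understates changes of low miRNAs, over 649 entries, with Benjamini-Hochberg adjustment at 0.05, two-sided. Arm ratios were fitted likewise over 178 pairs, with copies of an arm summed. edgeR 4.0.16, DESeq2 1.42.0 and limma-voom on recovered tags were alternatives, beside scaling, pseudocount, filter, replicate block and leaving out each library. Single values used exact permutation. Replicates differed beyond sampling noise (chi-square per degree of freedom 39.1 to 139.4).

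Named miRNAs were all miR-26 entries, a REST-linked list (values for the 4 most abundant, and 2 added later), the 3 nearest patterns to each 5p arm and their neighbours in level. The nearest pattern to each 3p arm of miR-26a was added later. The members and lists were chosen with earlier results of these data known.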

Additional observations from a re-analysis of the deposited data

How the results depend on the processing

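The number of miRNAs called over the whole table was 2 in limma and 2 in edgeR. It was 1 with a filter of at least 100 tags in 3 libraries, 1 in limma-voom, 5 in DESeq2, and 2 to 3 when 1 library was left out. No miR-26 sequence, arm ratio or REST-linked miRNA passed the threshold under any alternative run. Leaving out 1 library gave log2 folds of -0.014 to 0.036 for miR-26a-5p, -0.043 to 0.11 for miR-26b-5p, -0.23 to 0.10 for miR-26a-2-3p, -0.39 to -0.09 for miR-26a-1-3p and -0.66 to -0.40 for miR-26b-3p. It gave -0.069 to 0.28 for the 5p over 3p ratio of miR-26a, 0.36 to 0.74 for that of miR-26b and -0.075 to 0.045 for the log2 ratio of miR-26a-5p over miR-26b-5p. It gave -0.20 to -0.0997 for the log2 ratio of miR-26a-1-3p over miR-26a-2-3p and 0.101 to 0.228 percentage points for the share of the 5p arms. These changes of sign rest on fewer samples, and the cause was not tested. miR-26a-1-3p had too few tags for the filter of 100 tags. Under the other alternatives miR-26b-3p kept a negative log2 fold, with -0.37 at a pseudocount of 10 RPM as the smallest. Replicate numbers are not stated to pair the libraries. The deviations of same-numbered libraries correlated at -0.03, -0.12 and -0.03, and those of differently numbered libraries at -0.07 to 0.15. With so few libraries these values cannot show whether a pairing existed. With a replicate block 2 miRNAs were called and miR-26b-3p had a log2 fold of -0.53 (limma, adjusted p = 0.573). The median log2 fold of the REST-linked list lay between -0.04 and 0.10 over the alternatives. Depth limits miR-26a-1-3p most, at 52 to 112 tags, and a count of 0 would allow up to 0.242 to 0.255 RPM.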
